A study of Homo sapiens with 2 samples.

Results

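Transcripts of 10 genes for leukocyte integrins and adhesion receptors (ITGAX, ITGAM, ITGAL, ITGB2, ITGA4, ITGA5, ITGB1, ICAM1, CD44 and SELPLG) were examined in single-cell RNA-seq profiles of SP11-treated and untreated cells. They were taken by gene symbol from both count matrices, where each symbol is present, and are 10 of 36601 annotated genes. All 10 passed the minimum of 50 UMIs over both libraries that 12128 genes reached. A UMI, a unique molecular identifier, tags 1 captured RNA molecule.

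The tested library held cells treated for 48 h with 0.8 µM SP11, which the study describes as an inhibitor of the chaperone HSP90. The control library held untreated cells, and both were labelled MOLT4, an established human T-cell leukemia line. With a single library for each condition there are no replicates, and differences are given as sizes without p-values. Intervals below are 95% intervals that cover counting error only.

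Leukocyte integrins are heterodimers of an alpha and a beta subunit that carry cells through rolling arrest, firm adhesion and migration out of vessels. ITGB2 is the shared beta subunit of the leukocyte-restricted receptors LFA-1, Mac-1 and CD11c/CD18, whose alpha subunits are ITGAL, ITGAM and ITGAX, and ICAM1 is among their ligands. ITGB1 pairs with ITGA4 to bind VCAM1 and fibronectin and with ITGA5 to bind fibronectin, while CD44 binds hyaluronan and SELPLG encodes PSGL-1, the selectin ligand on which leukocytes roll.

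The SP11 library held 864 barcodes and 9561360 UMIs, against 1076 barcodes and 19512669 UMIs in the control library. After filtering, 852 SP11 cells with a median of 10489 UMIs and 1053 control cells with a median of 17711 UMIs remained. The 17 T lineage markers searched summed to 2.0 CPM (UMIs of a gene per 1000000 UMIs of the library) in the SP11 library and 2.84 CPM in the control library, and 11 of them had 0 UMIs in the SP11 library and 9 in the control library. Granulocyte precursor markers such as ELANE and CTSG summed to 1030 CPM in the SP11 library and 2315 CPM in the control library, with 6 of 9 at 10 CPM or more in each. MPO, LTF and CAMP were under 1 CPM in both libraries. The profiles thus went against the labelled T lineage, and the cells are called by their library here. Among kept cells, 109 barcodes occurred in both libraries. Cells sharing a barcode had a median correlation of 0.666, against 0.668 for cells with different barcodes.

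ICAM1 was the member most increased in level in the SP11 library, ITGAX was the most reduced, and ITGA4, the most abundant member in both libraries, was also lower. The other 7 members lay closer together in both libraries. Of the 10 members, 1 was at least 1.5-fold higher in the SP11 library, where 10.7% of all measured genes were, and 2 were at least 1.5-fold lower, where 38.4% of all measured genes were. Their median log2 ratio of SP11 over control CPM was 0.18, beside -0.35 for all measured genes, and 7 of 10 lay above 0. The lowest of these 7, ITGB1, was above 71.6% of measured genes, and the other 3 members were below the median gene. Because the median gene was not at 0, the scaling matters. TMM scaling raised every log2 ratio by 0.34 and DESeq2 size factors raised it by 0.36, after which 7 members again lay above 0. The median of all measured genes then lay at -0.008 with TMM scaling and 0.012 with DESeq2 size factors. Each shift was the same for every gene, so positions among the measured genes did not change. The share of all measured genes above 0 was not counted. With TMM scaling 3 members were at least 1.5-fold higher and 1 was lower, where 22.2% and 24.5% of all measured genes were. With DESeq2 size factors 4 were higher and 1 was lower, where 23.1% and 23.8% were. With the trend of the ratio over intronic length subtracted (described with ITGA4), 4 members were higher and 1 was lower, where 17.8% and 23.2% of 12094 genes were.

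**Figure D1:**
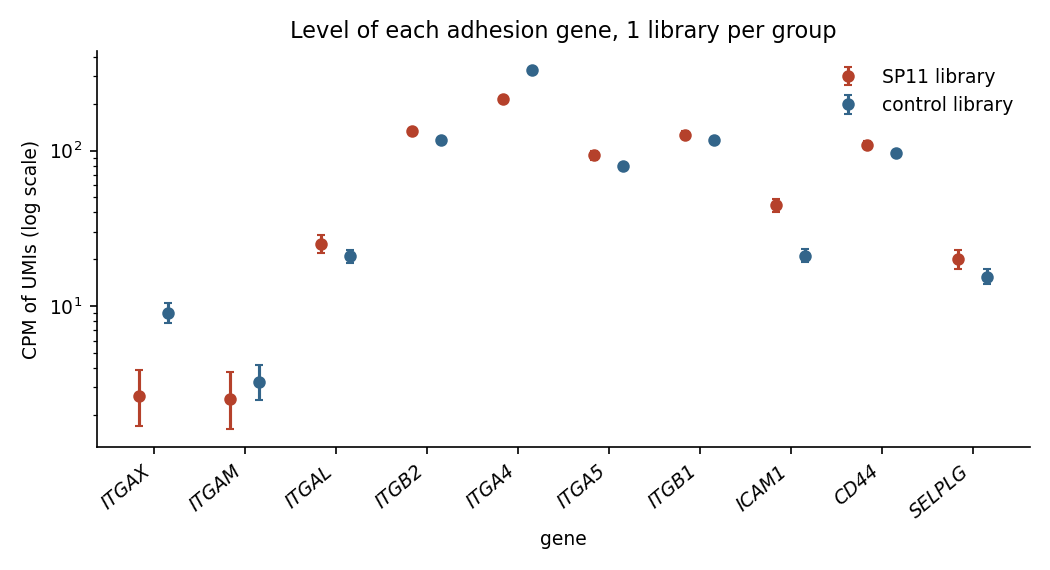
Level of each of the 10 adhesion genes (x axis) in CPM on a log scale (y axis), with the SP11 library in red to the left of the control library in blue and bars for 95% Poisson intervals. ITGA4 was highest in both libraries, and the SP11 and control points stood farthest apart for ITGAX (2.63 and 9.03 CPM) and ICAM1 (44.5 and 21.1 CPM).

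ICAM1, an immunoglobulin superfamily receptor that binds LFA-1 and Mac-1 and that is inducible by inflammatory cytokines in many cell types, lies at chr19:10271093-10286615 on the forward strand of GRCh38. It had 423 UMIs in the SP11 library and 409 in the control library, which corresponds to 44.5 CPM (40.4 to 49.0) in the SP11 library and 21.1 CPM (19.1 to 23.3) in the control library. The intervals were apart, and the SP11 level was 2.11-fold the control level, a log2 ratio of 1.08 (0.88 to 1.28). This ratio was above that of 96.9% of measured genes. It stayed between 0.93 and 1.44 over the 12 alternative settings, which include other scalings, cell filters and the removal of shared barcodes. An antisense transcript annotated across most of ICAM1, AC011511.2, had 0 UMIs in the SP11 library and 41 UMIs in the control library. Whether the counting used strand is not stated, so reads of overlapping genes on opposite strands may not be told apart.

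RefSeq promoter windows (GRCh38.p14) were available for 6 of the 10 members, and the stretches before the annotated start are shown for ICAM1, the member with the highest ratio, and for ITGAM, the only other member with a searched motif in that stretch. Both are on the forward strand and are written 5′ to 3′, with the motif in capitals. In ICAM1 (chr19:10270870-10271092) the capitals mark GGAAATTCC, a form of the NF-kB motif, and in ITGAM (chr16:31259725-31259966) they mark GAGGAA, a core of the motif of the myeloid factor PU.1.
ICAM1: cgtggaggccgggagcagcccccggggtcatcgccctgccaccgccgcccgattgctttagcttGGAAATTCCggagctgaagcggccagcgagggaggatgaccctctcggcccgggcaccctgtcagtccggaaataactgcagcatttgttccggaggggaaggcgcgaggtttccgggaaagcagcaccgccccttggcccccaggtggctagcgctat
ITGAM: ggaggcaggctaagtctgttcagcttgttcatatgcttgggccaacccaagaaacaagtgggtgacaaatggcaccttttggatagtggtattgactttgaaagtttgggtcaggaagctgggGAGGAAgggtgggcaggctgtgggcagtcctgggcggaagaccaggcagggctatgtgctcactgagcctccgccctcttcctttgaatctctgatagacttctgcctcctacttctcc
The ICAM1 motif begins 159 bases before the annotated start of the gene, and the ITGAM motif begins 119 bases before its start. Motifs were searched on both strands after the sequences had been seen. GGAAATTCC occurred in 0.461% of 35116 RefSeq windows of 300 bases and GAGGAA in 27.9%, so the ITGAM letters are common, and the window of ITGB1 at chr10:32958181-32958480 held GAGGAA too. TGAGTCA, the AP-1 motif, occurred in the ITGA5 window and in 4.95% of all windows. A match describes the letters only.

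ITGAX, the CD11c subunit that marks dendritic cells and many macrophages, lies at chr16:31355134-31382999 on the forward strand. It had 25 UMIs in the SP11 library and 175 UMIs in the control library, or 2.63 CPM (1.70 to 3.89) in SP11 and 9.03 CPM (7.74 to 10.5) in control. The control level was 3.43-fold the SP11 level, and the log2 ratio of -1.78 (-2.45 to -1.17) was above that of only 7.62% of measured genes. In the SP11 library the ITGAX UMIs came from 19 cells, 15 of them with 1 UMI. In the control library they came from 131 cells, 106 of them with 1 UMI. The 10 cells with the most held 64% of the UMIs in SP11 and 22.3% in control. That share depends on the number of UMIs, so it does not compare the spread over cells. ITGAM, with 24 SP11 UMIs in 24 cells, had 41.7% in its top 10.

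ITGAM and ITGAL lie near ITGAX on chromosome 16, at chr16:31259967-31332892 and chr16:30472658-30523567. ITGAM, the alpha subunit of the complement receptor Mac-1, had 24 UMIs in the SP11 library and 63 in the control library, or 2.53 CPM (1.62 to 3.76) in SP11 and 3.25 CPM (2.50 to 4.16) in control. These intervals overlapped, and at this depth a difference was not detectable (log2 ratio -0.36, -1.11 to 0.34). ITGAL, the alpha subunit of LFA-1, had 238 UMIs in the SP11 library and 405 in the control library, or 25.1 CPM (22.0 to 28.4) in SP11 and 20.9 CPM (18.9 to 23.0) in control. Its log2 ratio of 0.26 (0.02 to 0.50) was near 0 when every cell was given equal weight (0.01).

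ITGB2, the CD18 subunit on which all 3 of these alpha subunits depend for surface display, lies at chr21:44885953-44931989 on the reverse strand. It had 1259 UMIs in the SP11 library and 2249 in the control library, or 133 CPM (125 to 140) in SP11 and 116 CPM (111 to 121) in control, a log2 ratio of 0.19 (0.09 to 0.29). The 3 alpha subunits together gave 0.228 UMIs per ITGB2 UMI (0.200 to 0.259) in the SP11 library and 0.286 (0.262 to 0.312) in the control library. ITGAX was the alpha subunit whose ratio to ITGB2 differed, with 0.0199 UMIs per ITGB2 UMI (0.0128 to 0.0295) in the SP11 library against 0.0778 (0.0663 to 0.0908) in the control library. The ITGAL ratio was 0.189 (0.164 to 0.217) in the SP11 library and 0.180 (0.162 to 0.200) in the control library, and the ITGAM ratio was 0.0191 in the SP11 library and 0.0280 in the control library, with overlapping intervals. These are ratios of captured molecules counted, and no correction for gene length was applied to them. The lncRNA ITGB2-AS1, which overlaps ITGB2 on the other strand, had 11 UMIs in each library.

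ITGA4, the alpha subunit of VLA-4, lies at chr2:181457202-181538940 on the forward strand. It had 2028 UMIs in the SP11 library and 6339 in the control library, or 214 CPM (204 to 223) in SP11 and 327 CPM (319 to 335) in control. The log2 ratio was -0.62 (-0.69 to -0.54), which was lower than that of the median gene but higher than that of 37.0% of measured genes. With TMM scaling it was -0.27, so its size depended on the scaling, while the direction was the same in all 12 alternatives, which ran to -0.12 once the trend of the ratio with intronic length was subtracted. That trend was present over 12094 genes, with lower ratios for genes with longer introns (Spearman -0.34 across genes, which are not replicates), and ITGA4, with 71085 intronic bases, fell in a length bin whose median ratio was -0.50.

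ITGA5, the fibronectin receptor alpha subunit, and ITGB1, its beta partner, did not share the lower level of ITGA4. ITGA5 (chr12:54395261-54419266, reverse strand) had 885 UMIs in the SP11 library and 1530 in the control library, or 93.2 CPM (87.1 to 99.5) in SP11 and 79.0 CPM (75.1 to 83.0) in control, a log2 ratio of 0.24 (0.12 to 0.36). ITGB1 (chr10:32887273-33005792, reverse strand) had 1190 UMIs in the SP11 library and 2270 in the control library, or 125 CPM (118 to 133) in SP11 and 117 CPM (112 to 122) in control, and its interval included 0 (log2 ratio 0.10, -0.01 to 0.20). The balance between the partners therefore differed. There were 1.70 ITGA4 UMIs per ITGB1 UMI (1.59 to 1.83) in the SP11 library against 2.79 (2.66 to 2.93) in the control library. There were 2.29 ITGA4 UMIs per ITGA5 UMI (2.12 to 2.48) in the SP11 library and 4.14 (3.92 to 4.38) in the control library. Such ratios within a library do not depend on its scaling. The divergent transcript ITGB1-DT, which overlaps ITGB1 on the other strand, had 4 UMIs in the SP11 library and 60 in the control library.

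CD44, the hyaluronan receptor that is used as a marker of leukemic stem cells, lies at chr11:35138882-35232402 on the forward strand. It had 1034 UMIs in the SP11 library and 1872 in the control library, or 109 CPM (102 to 116) in SP11 and 96.6 CPM (92.3 to 101) in control, a log2 ratio of 0.17 (0.06 to 0.28). SELPLG (chr12:108621895-108633894, reverse strand) had 190 UMIs in the SP11 library and 300 in the control library, or 20.002 CPM (17.3 to 23.1) in SP11 and 15.5 CPM (13.8 to 17.3) in control. Its log2 ratio was 0.37 (0.10 to 0.64), higher than that of 82.7% of measured genes. Both genes lay under the size of 1.5-fold, and their CPM intervals were apart only for CD44.

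**Figure D2:**
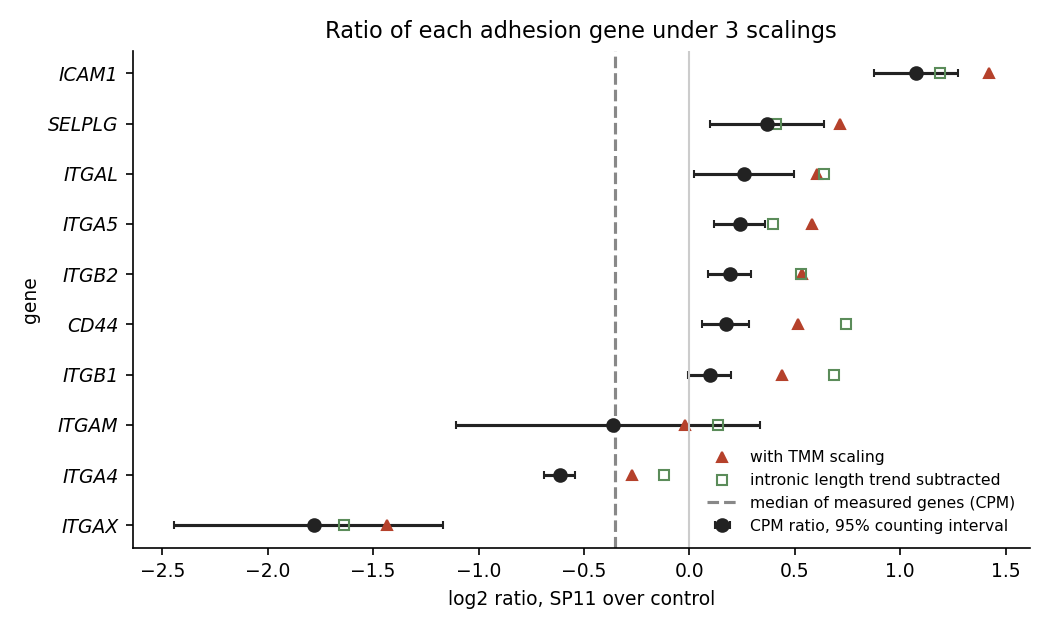
Log2 ratio of SP11 over control (x axis) for each of the 10 adhesion genes (y axis), with black points for the CPM ratio and bars for 95% counting intervals, red triangles for TMM scaling, green squares for the ratio after the intronic length trend was subtracted, and a dashed line at the median of measured genes (-0.35). ICAM1 and ITGAX kept their side of 0 under each scaling, and ITGA4 moved from -0.62 to -0.27 with TMM scaling.

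The members followed a similar order of level in both libraries, with ITGA4 at the top and ITGAX and ITGAM at the bottom. In the SP11 library ITGA4 was followed by ITGB2 and ITGB1, which did not differ beyond counting error, and then by CD44, ITGA5 and ICAM1, each apart from the next. ITGAL and SELPLG overlapped there, as did ITGAX and ITGAM at the bottom. In the control library ITGA4 was followed by ITGB1 and ITGB2, which again overlapped, and by CD44 and ITGA5, while ICAM1 (21.1 CPM) and ITGAL (20.9 CPM) overlapped and SELPLG, ITGAX and ITGAM followed, each apart. ICAM1 had 0.336 UMIs per ITGB2 UMI (0.3002 to 0.375) in the SP11 library and 0.182 (0.163 to 0.202) in the control library.

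Detection per cell was compared at 4400 UMIs per cell, to which each cell was randomly thinned, which left out 83 shallower SP11 cells and 90 shallower control cells. ICAM1 was detected in 16.4% (13.8 to 19.2) of 769 SP11 cells and 7.89% (6.27 to 9.78) of 963 control cells. Unthinned, the ICAM1 shares were 31.3% of SP11 and 28.8% of control cells, at median depths of 10489 and 17711 UMIs. ITGAX was detected in 0.780% (0.287 to 1.69) of SP11 cells and 3.32% (2.28 to 4.66) of control cells, and without thinning in 2.23% of SP11 cells and 12.4% of control cells. ITGA4 was detected in 61.5% (58.0 to 65.0) of SP11 cells and 71.7% (68.7 to 74.5) of control cells. Over 20 thinnings the mean share for ITGA4 was 59.3% in SP11 cells and 73.5% in control cells. For these 3 members the intervals were apart, in the same direction as the CPM.

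The share of cells with a UMI overlapped between the libraries for the other 7 members. ITGB2 was found in 39.8% of SP11 and 39.9% of control cells, ITGB1 in 41.9% of SP11 and 40.8% of control cells, and CD44 in 31.9% of SP11 and 32.4% of control cells. ITGA5 was found in 31.3% of SP11 and 27.6% of control cells, and ITGAL in 8.19% of SP11 and 8.93% of control cells. SELPLG was found in 8.19% of SP11 and 6.54% of control cells, and ITGAM in 0.520% (0.142 to 1.33) of SP11 and 1.56% (0.874 to 2.56) of control cells. These shares are from a single thinning. Over 20 thinnings the mean ITGAM share was 0.969% in SP11 and 1.22% in control cells. Means for ITGAL, ITGB2 and CD44 were then slightly higher in SP11 (9.21%, 41.0% and 34.4%) than in control (8.27%, 39.0% and 32.9%). Thinned cells of either library had a median of 2 members detected and at most 7. No cell type that should lack these genes could be named in either library, so the share that free RNA would give was not measured, and the lowest shares (ITGAX and ITGAM) cannot be told apart from such a background.

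**Figure D3:**
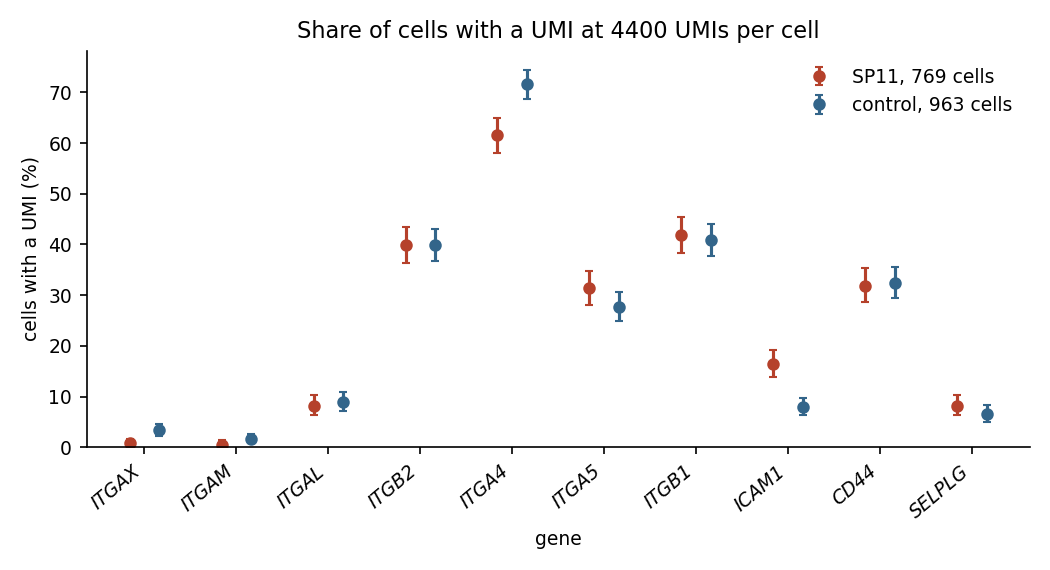
Share of cells with at least 1 UMI of each adhesion gene (y axis, percent) after thinning every cell to 4400 UMIs, in 769 SP11 cells (red, left) and 963 control cells (blue, right), with exact binomial 95% intervals. The intervals were apart for ITGAX, ITGA4 and ICAM1 and overlapped for the other 7 genes.

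The subunits of each heterodimer were next counted in the same thinned cells, since both are needed for a receptor at the surface. ITGA4 and ITGB1 were detected together in 24.97% (21.9 to 28.2) of SP11 cells and 29.5% (26.6 to 32.5) of control cells. If detection of both genes were independent, 25.8% of SP11 cells and 29.2% of control cells would hold both. ITGA5 and ITGB1 were found together in 13.4% of SP11 cells, beside 13.1% if independent, and in 10.9% of control cells, beside 11.3%. ITGAL and ITGB2 were found together in 3.90% of SP11 cells, beside 3.26%, and in 3.74% of control cells, beside 3.56%. For these pairs the observed shares lay close to the independent values, which at this depth does not show that detection of the partners was independent.

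For the rarest alpha subunits the numbers of cells were small. ITGB2 was detected in 5 of 6 ITGAX-positive SP11 cells, where 2.39 would be so if independent, and in 17 of 32 ITGAX-positive control cells, where 12.8 would be. ITGB2 was detected in 3 of 4 ITGAM-positive SP11 cells and in 6 of 15 ITGAM-positive control cells. The independent value lay within the interval of the observed share for all 5 heterodimers and for all 40 other pairs of members, in each library. That interval is wide for this purpose, because the single shares come from the same cells. A value within it therefore does not show that detection was independent. ITGB2 with CD44 lay farthest above its independent value, in percentage points, in the SP11 library, found in 14.4% (12.03 to 17.1) of SP11 cells beside 12.7% if independent. Most members had few UMIs per cell, and these shares do not measure how many cells carry each receptor.

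**Figure D4:**
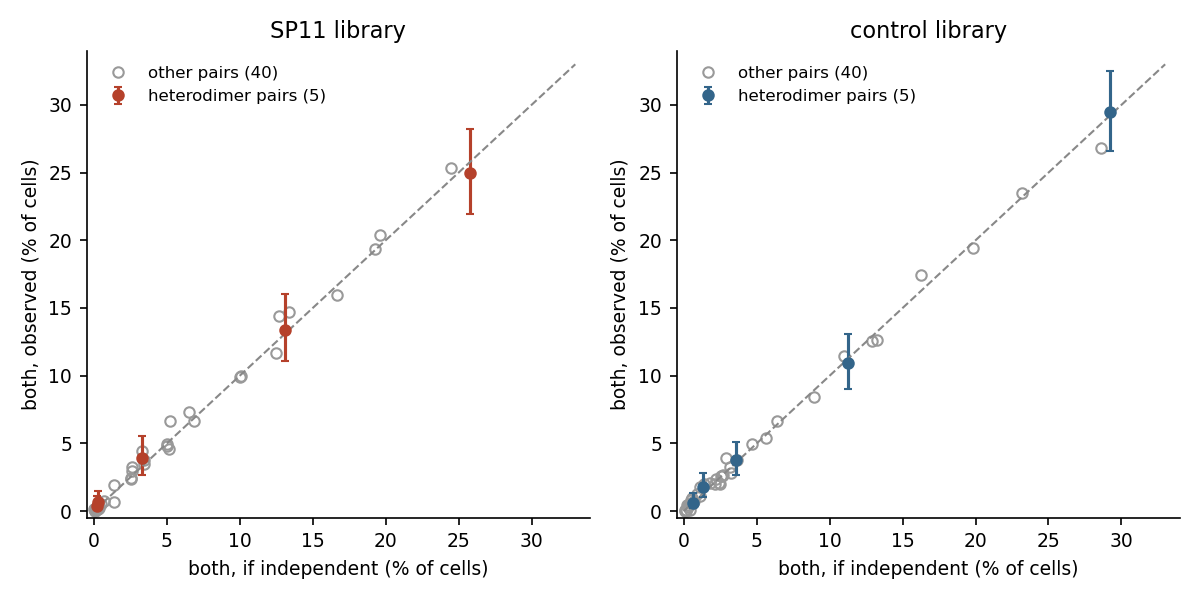
Share of thinned cells with UMIs of both genes of a pair (y axis, percent) against the share that independent detection would give (x axis, percent), with SP11 on the left and control on the right. Filled points are the 5 integrin heterodimers with exact binomial 95% intervals, open points are the other 40 pairs, and the points lay along the dashed line of equality.

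Cells of each library were clustered alone, and 5 clusters in each were deeper than a shallow cluster, which was cluster 4 in SP11 (median 1826 UMIs) and cluster 5 in control (median 788 UMIs). A small SP11 cluster of 20 cells, cluster 5, stood apart for the members. It was led by ATP6V0D2, SLC26A11 and TDO2, had a median of 14393 UMIs and held no barcode called a doublet. It had 14 of the 25 ITGAX UMIs of the SP11 library (56%), at 50.2 CPM (27.4 to 84.2) against 1.19 CPM in the other SP11 cells. The remaining SP11 clusters had at most 8 ITGAX UMIs each, and without cluster 5 the log2 ratio of ITGAX was -2.92. Cluster 5 was picked for removal as the SP11 cluster with the highest ITGAX level, so this ratio could only fall.

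Other members of the ITGB2 family and the ligands and receptors beside it were also highest in this cluster among the 5 deeper SP11 clusters. ITGB2 had 376 CPM (308 to 456) in cluster 5 and 125 CPM in the other SP11 cells. ITGAM had 21.5 CPM (7.89 to 46.8) there and 1.95 CPM in the others, and ITGAL had 64.5 CPM (38.2 to 102) there and 23.9 CPM in the others. ICAM1 had 183 CPM (136 to 240) there and 40.3 CPM in the others, CD44 had 179 CPM (133 to 236) there and 107 CPM in the others, and SELPLG had 71.7 CPM (43.8 to 111) there and 18.4 CPM in the others. ITGB1 was also highest there (165 CPM, 121 to 220), though the value of the other SP11 cells (124 CPM) lay within its interval. ITGA4 went the other way and was lowest in cluster 5, at 104 CPM (69.6 to 149) against 217 CPM in the others, while ITGA5 had 78.8 CPM (49.4 to 119) there, an interval that included the 93.6 CPM of the others.

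Because ITGAX, ITGAL, ITGB2, ICAM1, CD44 and SELPLG were among the 2000 variable genes used to cluster the SP11 cells, these levels are a description. Monocyte or macrophage markers summed to 2286 CPM in cluster 5 and 775 CPM in the other SP11 cells, with 9 of 14 at 10 CPM or more in the cluster, among them LYZ (1598 CPM) and S100A12 (115 CPM). CD14, CSF1R and CD163 were at 32.3, 35.8 and 32.3 CPM in cluster 5, and at 1.19, 1.30 and 0.325 CPM in the other SP11 cells. Granulocyte precursor markers summed to 272 CPM in cluster 5 and 1053 CPM in the other SP11 cells. Over whole libraries the monocyte or macrophage sum was 819 CPM in SP11 and 295 CPM in control, with 2 of the 14 markers at 0 in SP11 and 3 in control. LYZ alone gave 736 CPM of the SP11 sum and 241 CPM of the control sum, and the other 13 markers summed to 83.6 CPM in SP11 and 53.6 CPM in control. MARCO (6.74 CPM in SP11 and 22.2 CPM in control) and SPP1 (0.316 CPM in SP11 and 6.45 CPM in control) went the other way. The part of these markers in the ICAM1 difference was not tested. Without cluster 5 the ICAM1 log2 ratio was 0.93. A resolution of 0.3 returned the same 20 cells, 20 principal components returned 18 of them, and a resolution of 0.8 merged them into 133 cells with 9.71 ITGAX CPM.

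In the control library the levels had a narrower range over the 5 deeper clusters for some members. ITGB2 ranged from 108 to 129 CPM, ITGA4 from 299 to 348 CPM and ICAM1 from 18.9 to 27.4 CPM. Over SP11 clusters 0 to 3, without the 20 cells of cluster 5, they ranged from 108 to 152 CPM, from 179 to 275 CPM and from 23.0 to 55.3 CPM. ITGAL and SELPLG had a narrower range there, with highest over lowest ratios of 1.23 and 1.46 in SP11, against 2.62 and 2.05 in control. Among control clusters ITGAX was again the most uneven, with 13.5 CPM (10.8 to 16.7) in cluster 0 and 2.97 CPM (1.19 to 6.11) in cluster 3. Cluster 0 was led by TDO2, SPP1 and CCL4 and held 49.1% of the ITGAX UMIs, while the cluster 3 value rested on 7 UMIs. ITGAX, ITGAM, ITGAL, ICAM1 and CD44 were among the variable genes used to cluster the control cells, so these levels are a description too. In the SP11 library ITGA4 was highest in cluster 1 (275 CPM, 256 to 295), which was led by the DNA helicase gene PIF1, and the lowest of the deeper control clusters (299 CPM, 275 to 325) overlapped it. ICAM1 was lowest in SP11 cluster 2 (23.0 CPM, 16.5 to 31.2) and reached 55.3 CPM (43.5 to 69.4) in SP11 cluster 3, led by CXCL10, so the higher level of ICAM1 was not equal among SP11 clusters. Clusters of the libraries were made separately, and no cluster of one library is matched to a cluster of the other.

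**Figure D5:**
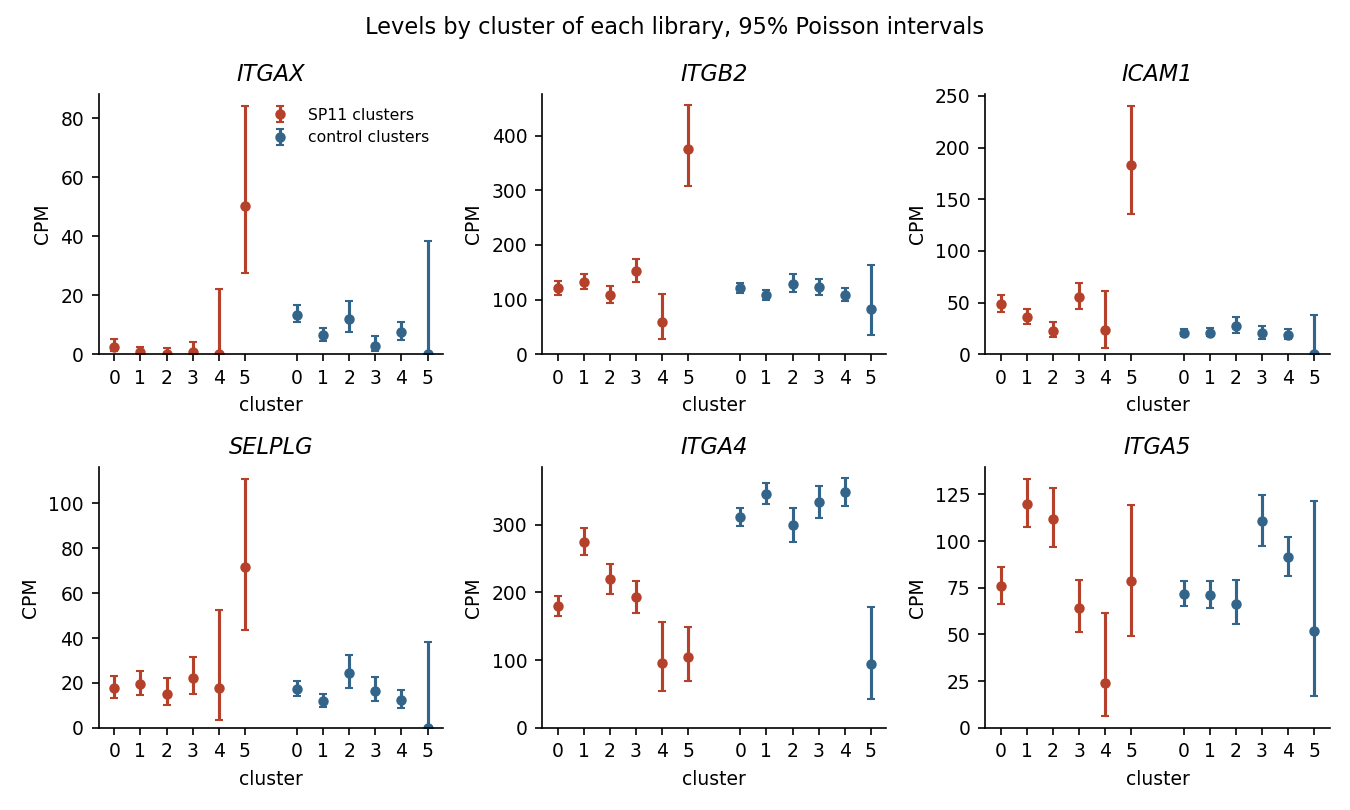
Level in CPM (y axes) of ITGAX, ITGB2, ICAM1, SELPLG, ITGA4 and ITGA5 by cluster (x axes), with SP11 clusters in red on the left and control clusters in blue on the right and bars for 95% Poisson intervals. SP11 cluster 5, with 20 cells, was highest for ITGAX, ITGB2, ICAM1 and SELPLG but not for ITGA4 or ITGA5, and cells of SP11 cluster 4 and control cluster 5 were shallow.

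Members also differed between cell cycle phases called from S and G2M marker genes. ITGA4 had 190, 167 and 256 CPM in G1, S and G2M cells of the SP11 library, against 320, 309 and 347 CPM in those of the control library. Its level was lower in the SP11 library in every phase. ICAM1 had 54.3, 49.8 and 36.3 CPM in G1, S and G2M cells of the SP11 library, against 25.7, 20.6 and 18.6 CPM in those of the control library. ITGAX had 7.82, 1.73 and 0.677 CPM in the SP11 library, against 15.1, 7.41 and 6.46 CPM in the control library, and thus was highest in G1 in both. The SP11 values of ITGAX rested on 17, 5 and 3 UMIs in G1, S and G2M. In G1 its intervals overlapped between the libraries (4.56 to 12.5 in SP11 and 11.9 to 18.9 in control). The directions of these 3 members were the same within each phase. No interval of the ratio was computed by phase, so the overlap for ITGAX in G1 does not settle whether its difference exceeded counting error.

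Other genes of the adhesion machinery were then described by role. Of 110 such genes, 68 were measured, 7 were at least 1.5-fold higher in the SP11 library and 19 at least 1.5-fold lower, with a median log2 ratio of -0.17. These were 10.3% and 27.9% of those measured, beside 10.7% and 38.4% of all measured genes. With TMM scaling the split was 12 higher and 12 lower, beside 22.2% and 24.5% of all measured genes. Among 7 measured alpha subunits, ITGAE, the E-cadherin receptor subunit CD103, had 88.1 CPM in the SP11 library and 48.6 CPM in the control library (log2 ratio 0.86, 0.72 to 0.99). ITGA6, a laminin receptor subunit, had 55.8 CPM in the SP11 library and 139 CPM in the control library (-1.32, -1.46 to -1.18). Its log2 ratio was -0.75 with the intronic trend subtracted. ITGA9 and ITGAV were lower too by CPM (-1.25 and -0.67). With TMM scaling they had -0.91 and -0.33, and with the intronic trend subtracted -0.23 and -0.18. No other beta subunit gene was measured. ITGB7, the partner of ITGAE, had 3 UMIs in the SP11 library and 1 in the control library, so ITGB1 and ITGB2 were the beta subunits that reached the minimum.

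Of 21 measured genes of integrin activation and linkage to the cytoskeleton, 3 were higher and 4 lower by the same size (14.3% and 19.0%, beside 10.7% and 38.4% of all measured genes), or 5 higher and 3 lower with TMM scaling. RASSF5, the Rap effector that acts on LFA-1, had 29.2 CPM in the SP11 library and 18.0 CPM in the control library (0.70, 0.46 to 0.93), and ITGB1BP1, which binds the ITGB1 tail, had 156 CPM in the SP11 library and 101 CPM in the control library (0.63, 0.53 to 0.73). FERMT3, the kindlin of blood cells, had 127 CPM in the SP11 library and 82.4 CPM in the control library. At the other end, TLN2, a talin, had 40.3 CPM in the SP11 library and 136 CPM in the control library (-1.75, -1.91 to -1.60). PXN, the adaptor paxillin, had 2.11 CPM in the SP11 library and 6.81 CPM in the control library (-1.69, -2.45 to -1.01). With the intronic trend subtracted TLN2 stood at -0.74 and PXN at -1.31.

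Ligands of the members were mostly rare. VCAM1, SELE and SELP had 0 UMIs in both libraries. C3, the source of the iC3b fragment that Mac-1 binds, had 18.1 CPM in the SP11 library and 3.66 CPM in the control library (2.30, 1.90 to 2.72), and it reached 158 CPM in SP11 cluster 5. ICAM2, a ligand of LFA-1, had 44 UMIs in the SP11 library and 66 in the control library (0.44, -0.14 to 1.02). SPP1, osteopontin, had 3 UMIs in the SP11 library and 125 UMIs in the control library (-4.35, -6.65 to -2.77), and MADCAM1, a mucosal addressin, had 4 UMIs in the SP11 library and 52 in the control library (-2.67, -4.60 to -1.23).

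The enzymes that decorate PSGL-1 were mostly lower by CPM, while SELPLG itself was not. All 11 were measured, 0 were at least 1.5-fold higher and 6 were at least 1.5-fold lower, with a median log2 ratio of -0.63. The lower share was 54.5%, beside 38.4% of all measured genes. With TMM scaling 4 of the 11 were lower, where 24.5% of all genes were, and with the intronic trend subtracted 2 were lower and 1 higher, where 23.2% and 17.8% of all genes were. ST3GAL3, a sialyltransferase, had 54.7 CPM in the SP11 library and 163 CPM in the control library (-1.57, -1.71 to -1.44). GCNT1, the enzyme of core branching, had 19.1 CPM in the SP11 library and 45.01 CPM in the control library (-1.24, -1.48 to -1.01). With the intronic trend subtracted ST3GAL3 stood at -0.74 and GCNT1 at -0.41, which is under the size of 1.5-fold. TPST2, a tyrosine sulfotransferase, and ST3GAL6, a sialyltransferase, were nearly level by CPM at log2 ratios of 0.03 each, and stood at 0.53 and 0.60 with the trend subtracted.

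Around CD44, 9 of 16 linker, hyaluronan and cleavage genes were measured and 1 was lower by the same size, a share of 11.1% beside 38.4% of all measured genes, and none was with TMM scaling. ADAM10, a protease that sheds CD44, had 88.3 CPM in the SP11 library and 165 CPM in the control library (-0.91, -1.02 to -0.80), which was -0.56 with TMM scaling and -0.21 with the intronic trend subtracted. EZR (ezrin) and RDX (radixin), which tie CD44 to actin, had log2 ratios of 0.20 and -0.30 by CPM. These were 0.54 and 0.04 with TMM scaling, and 0.67 and 0.71 with the intronic trend subtracted. Among 13 measured adhesion molecules of other kinds, the tetraspanins differed in direction. CD82 had 47.5 CPM in the SP11 library and 20.4 CPM in the control library (1.22, 1.02 to 1.41), and CD53 had 17.6 CPM in the SP11 library and 9.70 CPM in the control library (0.86, 0.55 to 1.17). CD37 had 28.1 CPM in the SP11 library and 99.9 CPM in the control library (-1.83, -2.02 to -1.64), and CD151 was also lower (-0.73).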

How the data were processed

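The authors deposited, for each library, 10x Genomics UMI counts per gene and barcode, not normalized. Per the file headers they came from Cell Ranger 7.1.0, with GRCh38 (hg38) named in the submitters' processing notes. The sources used here do not say whether reads in introns were counted. Groups were taken from the treatment labels, with 1 library each. Barcodes with at least 200 genes and at most 20% mitochondrial UMIs were kept, which follows the study's filter (852 SP11 and 1053 control cells, more than the study retained). Scrublet in scanpy 1.11.5 called 21 SP11 and 45 control doublets, which were kept.

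UMIs were summed over cells and divided by all UMIs (CPM). A CPM has an exact Poisson interval, a share an exact binomial interval, and a log2 ratio an interval from the Clopper-Pearson limits on the share of a gene's UMIs found in SP11. A count of 0 allows up to 3 counts, 0.316 CPM in SP11 and 0.155 CPM in control. Shares were taken after thinning to 4400 UMIs. Clusters came from Seurat 5.3.0 (10 principal components, resolution 0.5). Scaling with edgeR 4.0.16 (TMM) and DESeq2 1.42.0 factors was an alternative. Gene positions and intron lengths are from GENCODE 44. The calculations were tested on simulated data.

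The members and gene lists were chosen with earlier results of these data known. Genes named were the members, overlapping genes, up to 2 genes from each end of each list's ratios and up to 3 leading genes of a described cluster. A gene whose per-cell levels correlated with a member's at r of 0.3 or more would have been named, and none did. This search took only members found in at least 10% of a library's thinned cells. It left out ITGAX, ITGAM, ITGAL and SELPLG, and ICAM1 in control. ITGAV, ITGB7, FERMT3, the markers named and genes at 0 UMIs were added after their values were seen.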

Additional observations from a re-analysis of the deposited data

How the results depend on the processing

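No paired analysis was possible because each group had 1 library. The counts and the median moved with the scaling and with the trend over intronic length. With TMM scaling, DESeq2 scaling and the trend subtracted, the median log2 ratio of the members was 0.53, 0.55 and 0.47 (0.18 by CPM), the members at least 1.5-fold higher numbered 3, 4 and 4 (1 by CPM) and those lower 1, 1 and 1 (2 by CPM). Other adhesion genes at least 1.5-fold higher then numbered 12, 12 and 21 (7 by CPM) and those lower 12, 12 and 11 (19 by CPM). These scalings shift all genes by their construction, and of all measured genes 22.2%, 23.1% and 17.8% were then higher and 24.5%, 23.8% and 23.2% lower. Without SP11 cluster 5 the members lower numbered 3. Of the log2 ratios of single members under 12 alternatives, 95 moved by less than their interval and 25 by more. The largest move of a member was that of ITGAX without SP11 cluster 5, to a log2 ratio of -2.92. That cluster was removed because its ITGAX level was the highest in SP11, so the direction of this move was fixed beforehand. ITGA4 with equal weight for every cell had -0.47. The ITGAX result rests on 25 SP11 UMIs, and depth limits ITGAM most. Shares without thinning moved with depth. Leaving out barcodes found in both libraries, chosen after seeing the data, gave log2 ratios of -1.62 for ITGAX, -0.59 for ITGA4 and 1.11 for ICAM1.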
